A study of Hipposideros armiger and Mus musculus with 20 samples.

Results

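Cold-exposed subcutaneous white fat was set against warm-kept brown fat, the comparison in which a white depot in the cold, where it can brown, meets a brown depot at rest. Of the 20 libraries in the series, the 4 concerned were chosen by their labelled tissue and temperature. They were 2 libraries of subcutaneous white adipose tissue (sWAT) from mice kept at 10 °C for 7 days, and 2 of interscapular brown adipose tissue (iBAT) from mice kept at 30 °C for 7 days. Each group held 1 female and 1 male library. All mice were of the outbred ICR strain with no allele or drug named, so the groups differed in depot and temperature together, and the effects of these cannot be told apart in this contrast. The 2 groups necessarily came from different mice, and the labels do not say whether a library was made from 1 animal or several. The p-values below therefore measure the spread between these libraries, which may be partly technical. Within each group that spread is also the difference between a female and a male library, since the fit behind the p-values held no term for sex. The other mouse libraries of the series, 2 of sWAT at 30 °C (warm sWAT) and 2 of iBAT at 10 °C (cold iBAT), entered the same fit to help estimate that spread, and their values are set beside the main ones. A pair of values is always given for the female library and then the male one.

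Brown fat cells burn fatty acids in densely packed mitochondria and release the energy as heat through uncoupling protein 1 (UCP1), which lets protons leak across the inner mitochondrial membrane. Noradrenaline from sympathetic nerves switches this on in the cold, through beta-adrenergic receptors and cyclic AMP. In mice, cold also makes UCP1-bearing beige fat cells appear within subcutaneous white fat, a process called browning, whereas brown fat near thermoneutrality, which lies close to 30 °C in mice, is little stimulated and stores more lipid.

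The values are FPKM, fragment counts scaled to transcript length and to all mapped fragments, as the authors deposited them. Their sum was 287470 and 286040 in cold sWAT, against 283170 and 293580 in warm iBAT. The cold sWAT libraries stood apart from each other. Of the genes tested, 10.1% differed by over 1 on the log2 scale between the female and the male cold sWAT library, against 1.16% between the warm iBAT libraries. Pearson's r between the cold sWAT libraries, across genes, which are not independent replicates, was 0.912, and between the warm iBAT libraries 0.982. The male cold sWAT library correlated at 0.928 and 0.935 with the warm iBAT libraries, and the female one at 0.859 and 0.855.

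Markers of other cells tell the same libraries apart. Of 20 skeletal muscle genes, the summed level was 54.8 and 2494 FPKM in cold sWAT, against 2868 and 2264 FPKM in warm iBAT. Muscle transcripts were low in the female cold sWAT library and high in the other 3. Ckm, muscle creatine kinase, read 3.42 and 359.7 FPKM in cold sWAT, against 482 and 405 FPKM in warm iBAT. The 11 B lymphocyte genes summed to 307 and 6.01 FPKM in cold sWAT, against 27.0 and 4.83 FPKM in warm iBAT, the 11 T lymphocyte genes to 137 and 4.51 FPKM, against 4.49 and 4.01 FPKM, and the 5 epithelial and mammary genes to 59.5 and 0.719 FPKM, against 6.04 and 0.311 FPKM. The female cold sWAT library was the high one in each of these lists. The epithelial genes Elf5 and Krt14 were listed at 0 in the male cold sWAT library and the male warm iBAT library. The 4 red blood cell genes with values, of which 3 passed the filter on low values, summed to 1899.7 and 1276 FPKM in cold sWAT, against 90.9 and 7696 FPKM in warm iBAT. The 2 warm iBAT libraries lay furthest apart. No gene of these 5 lists passed the test described below, although without the male cold sWAT library 10 B lymphocyte genes and 11 T lymphocyte genes were higher and 4 muscle genes lower. The fat cell hormone adiponectin, Adipoq, read 922 and 1223 FPKM in cold sWAT, against 1047 and 852 FPKM in warm iBAT, and the groups overlapped. The part of muscle, lymphoid and epithelial RNA in any result was not tested.

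**Figure D1:**
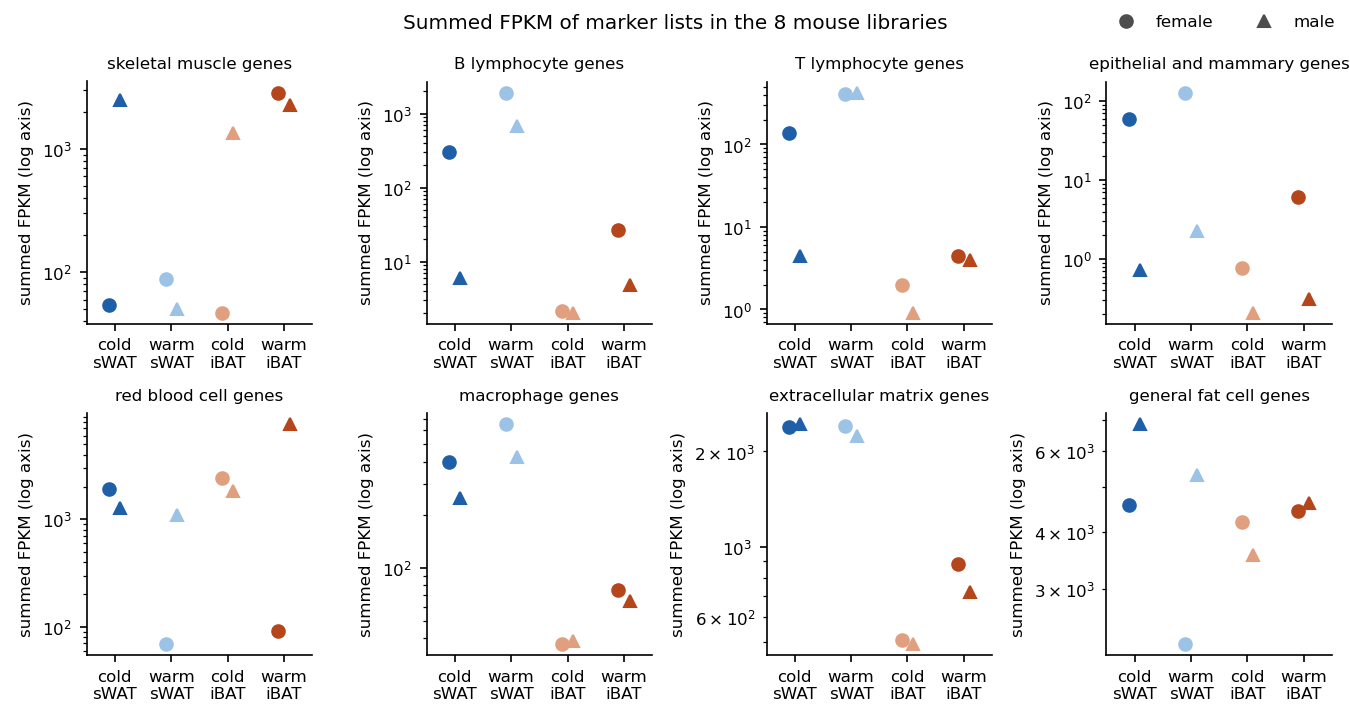
Summed FPKM of 8 marker lists (y, log axes) in each mouse library, in 4 groups (x); circles are female and triangles male libraries. Muscle genes separate the female cold sWAT library (54.8 FPKM) from the male one (2494 FPKM), lymphocyte and epithelial genes do so the other way, and macrophage and matrix genes are higher in both cold sWAT libraries than in both warm iBAT libraries.

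Across 10689 genes tested, 862 were higher in cold sWAT than in warm iBAT (8.06% of genes tested) and 696 were lower (6.51%). Every count of called list members below is to be read beside these shares. The test was limma's moderated test on log2(FPKM + 1) after scaling the 8 mouse libraries to a common median ratio, two-sided, with Benjamini-Hochberg adjustment over all genes tested and a threshold of 0.05. The median log2 difference (cold sWAT minus warm iBAT) over all genes was 0.07, beside which every list median below stands. It was 0.20 without scaling and -0.03 with quantile normalization. Because 1 is added to each FPKM, the log2 differences understate the change of genes near or under 1 FPKM. Calls split 55.3% higher to the rest lower in this scaling, against 72.3% higher without scaling and 42.5% with quantile normalization. With only 2 libraries a group, an exact permutation of 2 against 2 cannot give a two-sided p under 0.333, so the calls lean on the spread pooled over 4 groups. Leaving out the female warm iBAT library left 141 higher and 77 lower calls, leaving out the male one 105 and 56, leaving out the female cold sWAT library 548 and 384, and leaving out the male one 1622 and 896. Without either warm iBAT library no call was left in the lists of ATP synthase, the citric acid cycle, mitochondrial ribosome proteins, glycolysis, glycogen, classical brown fat identity, cyclic AMP signalling, clock, cell division, interferon response, proteasome, chaperone, white fat and general fat cell genes described below. Of the genes called, 6 higher ones reached the filter of 1 FPKM only in the 2 cold sWAT libraries and 13 lower ones only in the 2 warm iBAT libraries, so they had to differ. Statements that both libraries of a group lie above or below those of the other are on the scaled values. In bulk tissue, a difference in the number of cells of a type and a difference in RNA per cell cannot be told apart, which holds for every result below.

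The largest increases among well-expressed genes mixed immune, thermogenic, lipid and positional genes. They were led by a pair of antigen presentation transcripts. The class II gene H2-Eb1 read 142 and 52.6 FPKM in cold sWAT, against 3.85 and 2.95 FPKM in warm iBAT (log2 difference 4.17 ± 0.36, adjusted p = 0.00357), and H2-Ea-ps read 142 and 43.8 FPKM in cold sWAT, against 1.95 and 1.82 FPKM in warm iBAT (log2 difference 4.66 ± 0.43, adjusted p = 0.00382). Both cold sWAT libraries lay far above both warm iBAT libraries. Reads of these related genes, and of the immunoglobulin heavy chain Ighm, also among the first 10, may be split or shared by the authors' counting, so their values are uncertain. In the male cold sWAT library the B cell gene Cd79a read 0.736 FPKM, against 0.766 and 0.884 FPKM in warm iBAT, and H2-Eb1 read 52.6 FPKM. Cd79a is a single marker chosen after its value was seen, and the part of B cells in these values was not tested.

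Slc25a10, the mitochondrial dicarboxylate carrier, read 212 and 204 FPKM in cold sWAT, against 10.5 and 13.0 FPKM in warm iBAT (log2 difference 3.88 ± 0.35, adjusted p = 0.00372). Its values were 43.8 and 95.9 FPKM in warm sWAT and 14.9 and 12.4 FPKM in cold iBAT, so both sWAT groups exceeded both iBAT groups, and cold sWAT was the highest. Il1r2, a decoy receptor for interleukin 1, read 15.7 and 22.7 FPKM in cold sWAT, against 0.133 and 0.881 FPKM in warm iBAT (log2 difference 3.65 ± 0.42, adjusted p = 0.00565), and 10.8 and 22.3 FPKM in warm sWAT and 0.30 and 0.277 FPKM in cold iBAT. Ptges, a prostaglandin E synthase, read 42.0 and 29.0 FPKM in cold sWAT, against 1.92 and 3.10 FPKM in warm iBAT (log2 difference 3.23 ± 0.22, adjusted p = 0.00248). None of the cold sWAT values of these 3 genes overlapped those of warm iBAT, and each call held under all 16 alternative analyses.

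The deepest shortfall was in Gpx3, a secreted glutathione peroxidase that carries selenium. It read 264 and 180.0 FPKM in cold sWAT, against 3541 and 3095 FPKM in warm iBAT (log2 difference -4.08 ± 0.39, adjusted p = 0.00387). The other groups read 416 and 323 FPKM in warm sWAT and 578 and 255 FPKM in cold iBAT, so warm iBAT alone was high. Coq8a, a kinase-like protein needed for coenzyme Q synthesis, read 41.8 and 43.4 FPKM in cold sWAT, against 639.6 and 518 FPKM in warm iBAT (log2 difference -3.89 ± 0.29, adjusted p = 0.00248), with 12.5 and 6.49 FPKM in warm sWAT and 255 and 176 FPKM in cold iBAT. Impdh1, an enzyme of guanine nucleotide synthesis, read 13.0 and 13.3 FPKM in cold sWAT, against 214 and 147 FPKM in warm iBAT (log2 difference -3.81 ± 0.21, adjusted p = 0.00196), and 21.3 and 15.2 FPKM in warm sWAT and 25.4 and 23.4 FPKM in cold iBAT. Like Gpx3, it was high in warm iBAT and low in the other 3 groups. Ivns1abp, a kelch-type protein, followed that pattern too, with 35.2 and 26.2 FPKM in cold sWAT, against 319.9 and 223 FPKM in warm iBAT (log2 difference -3.26 ± 0.19, adjusted p = 0.00196).

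The remaining strongest decreases held several genes better known from neurons and glia. Ntrk3, the receptor for neurotrophin 3, read 7.34 and 6.61 FPKM in cold sWAT, against 64.5 and 72.2 FPKM in warm iBAT (log2 difference -3.27 ± 0.17, adjusted p = 0.00196). Mapt, the microtubule protein tau, read 1.04 and 2.37 FPKM in cold sWAT, against 40.0 and 21.4 FPKM in warm iBAT (log2 difference -3.65 ± 0.35, adjusted p = 0.00382). Olig1, a transcription factor of the oligodendrocyte lineage, read 0.767 and 0.643 FPKM in cold sWAT, against 14.5 and 9.61 FPKM in warm iBAT (log2 difference -3.02 ± 0.25, adjusted p = 0.00320). Cold iBAT read 30.6 and 38 FPKM for Ntrk3, 8.07 and 6.62 FPKM for Mapt and 3.67 and 5.68 FPKM for Olig1, which lies between the other values in each case. Of 5 measured Schwann cell and nerve genes none passed the test, and their median log2 difference was 0.19. Rgs2, which dampens G protein signals, read 15.2 and 7.52 FPKM in cold sWAT, against 89.0 and 81.8 FPKM in warm iBAT (log2 difference -3.04 ± 0.47, adjusted p = 0.0126), Acsm3, a mitochondrial medium-chain acyl-CoA synthetase, 12.7 and 10.6 FPKM in cold sWAT, against 81.1 and 58.6 FPKM in warm iBAT (log2 difference -2.63 ± 0.14, adjusted p = 0.00196), and Strip2, part of a phosphatase-kinase assembly, 1.14 and 0.518 FPKM in cold sWAT, against 11.8 and 8.42 FPKM in warm iBAT (log2 difference -2.73 ± 0.24, adjusted p = 0.00365). Warm iBAT was above cold sWAT in both sexes for all of these.

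**Figure D2:**
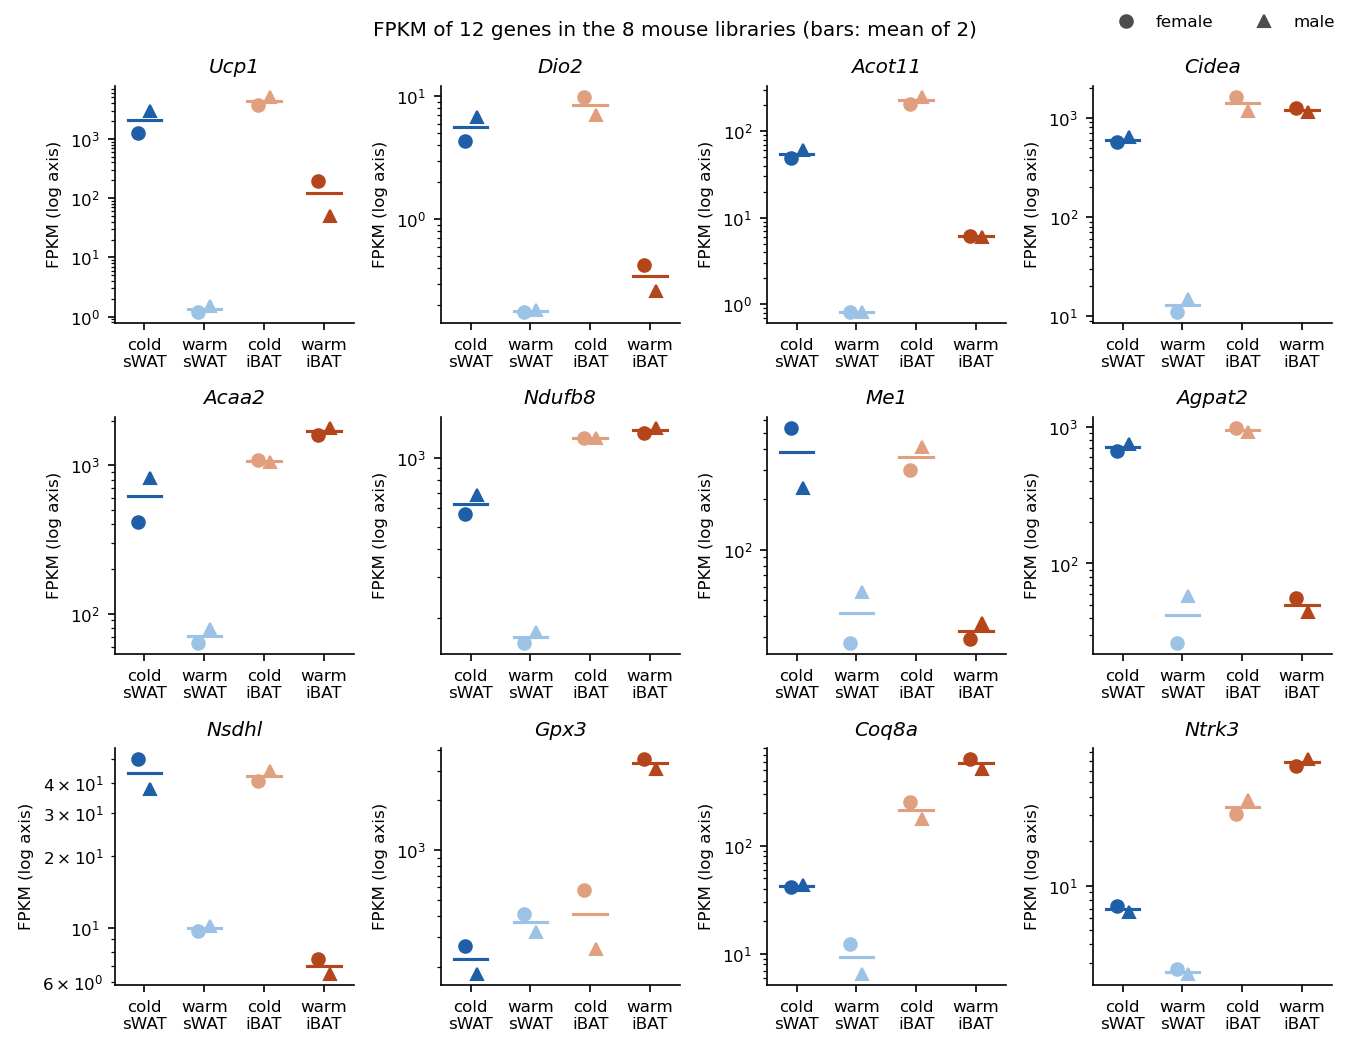
FPKM (y, log axes) of 12 genes in each mouse library, in 4 groups (x); circles are female libraries, triangles male libraries and bars the mean of 2. Ucp1, Dio2, Acot11, Me1, Agpat2 and Nsdhl are higher in cold sWAT than in warm iBAT, and Cidea, Acaa2, Ndufb8, Gpx3, Coq8a and Ntrk3 are lower.

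Heat-producing genes did not move as a block. Of 28 measured brown fat and thermogenic genes, 5 were higher in cold sWAT and 7 lower, and 16 did not pass the test. Over all genes tested, 8.06% were higher and 6.51% lower. The median log2 difference was -0.33, and it was -0.64 between the female libraries and 0.24 between the male ones. Without the female warm iBAT library the list held 3 higher and 3 lower calls, and without the male one 1 and 2. Without the male cold sWAT library there were 12 lower calls.

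Ucp1 itself read 1229 and 2977 FPKM in cold sWAT, against 192 and 49.9 FPKM in warm iBAT. Each cold sWAT library exceeded each warm iBAT library, on average by 17.2-fold on the scaled FPKM + 1 scale (log2 difference 4.10 ± 0.68, adjusted p = 0.0158, 95% interval 2.46 to 5.75). The male library was the higher one in cold sWAT and the female one in warm iBAT. Without the male warm iBAT library the log2 difference was 3.19 with an adjusted p of 0.0809. In a fit of these 4 libraries alone the adjusted p was 0.0605. The other groups read 1.19 and 1.53 FPKM in warm sWAT and 3688 and 5119 FPKM in cold iBAT, so the order was cold iBAT, cold sWAT, warm iBAT, warm sWAT, with no overlap between neighbours.

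Dio2, the deiodinase that makes active thyroid hormone inside the cell, read 4.35 and 6.82 FPKM in cold sWAT, against 0.428 and 0.261 FPKM in warm iBAT (log2 difference 2.18 ± 0.26, adjusted p = 0.00615). Acot11, a cold-inducible acyl-CoA thioesterase, read 49.3 and 60.5 FPKM in cold sWAT, against 6.19 and 6.02 FPKM in warm iBAT (log2 difference 2.81 ± 0.19, adjusted p = 0.00248). Cold iBAT held 9.90 and 7.05 FPKM of Dio2 and 208 and 250.2 FPKM of Acot11, and warm sWAT 0.176 and 0.184 FPKM and 0.807 and 0.812 FPKM. Ucp3, a relative of UCP1 also found in muscle, read 31.3 and 43.7 FPKM in cold sWAT, against 10.2 and 15.6 FPKM in warm iBAT (log2 difference 1.32 ± 0.32, adjusted p = 0.0414), although that call was lost in 9 of 16 alternatives. Aspg, an asparaginase, was the other higher gene, with 28.9 and 18.6 FPKM in cold sWAT, against 6.94 and 4.75 FPKM in warm iBAT (log2 difference 1.69 ± 0.32, adjusted p = 0.0211). Cold iBAT exceeded cold sWAT in the values of Ucp1 and Acot11, and its Dio2 values lay above those of cold sWAT too.

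Other genes that mark brown fat were lower than in the resting brown depot. Beside those named next, Sirt3, a mitochondrial deacetylase, read 15.4 and 21.1 FPKM in cold sWAT, against 47.9 and 58.6 FPKM in warm iBAT (log2 difference -1.66 ± 0.23, adjusted p = 0.00951). Cidea, a lipid droplet protein, read 565 and 636 FPKM in cold sWAT, against 1263 and 1157 FPKM in warm iBAT (log2 difference -1.18 ± 0.25, adjusted p = 0.0314), with 10.9 and 15.0 FPKM in warm sWAT and 1633 and 1176 FPKM in cold iBAT. Its 2 cold sWAT values were close to each other, as were the 2 of warm iBAT, and the groups did not overlap. The call was lost in 7 of 16 alternatives, among them the removal of any of the 4 libraries other than the male cold sWAT one, with an adjusted p of 0.144 without either warm iBAT library and 0.0836 without the female cold sWAT one. Slc27a2, which takes up and activates long fatty acids, read 7.05 and 7.70 FPKM in cold sWAT, against 44.3 and 39.2 FPKM in warm iBAT (log2 difference -2.50 ± 0.25, adjusted p = 0.00416). Ppargc1b, a coactivator of mitochondrial genes, read 2.63 and 6.95 FPKM in cold sWAT, against 24.2 and 26.3 FPKM in warm iBAT (log2 difference -2.43 ± 0.38, adjusted p = 0.0130). Its relative Ppargc1a read 1.46 and 3.66 FPKM in cold sWAT, against 3.96 and 2.44 FPKM in warm iBAT, overlapping between groups, with a 95% interval of the log2 difference of -1.37 to 0.58.

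Several other brown fat genes were not called, and some of these lay in the same range in both groups. Prdm16, a zinc finger protein of brown and beige cell fate, read 0.998 and 2.33 FPKM in cold sWAT, against 1.56 and 1.34 FPKM in warm iBAT (95% interval -0.89 to 0.87). Cox7a1, a cytochrome oxidase subunit of brown fat and muscle, read 769.7 and 1516 FPKM in cold sWAT, against 1423 and 1329.5 FPKM in warm iBAT (interval -1.41 to 0.38), and its male cold sWAT value was above both warm iBAT values while the female one was below. Cpt1b, which passes fatty acids into mitochondria in brown fat and muscle, read 77.3 and 173 FPKM in cold sWAT, against 222 and 229.8 FPKM in warm iBAT (log2 difference -1.12 ± 0.41, interval -2.11 to -0.13, adjusted p = 0.116), with both cold sWAT values below those of warm iBAT yet no call. Esrrg, an orphan receptor of oxidative tissues, read 0.652 and 1.06 FPKM in cold sWAT, against 2.82 and 2.08 FPKM in warm iBAT (interval -1.60 to -0.36, adjusted p = 0.0513). Both cold sWAT values were below those of warm iBAT, and the adjusted p was just outside the threshold. The beta3-adrenergic receptor gene Adrb3 read 39.1 and 68.8 FPKM in cold sWAT, against 44.5 and 43.0 FPKM in warm iBAT (interval -0.91 to 1.06). These intervals leave room for differences of up to about 1 log2 unit or more in some of the genes.

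Respiratory chain genes lay on the low side. All 44 electron transport chain subunits had a log2 difference below 0, from -2.10 to -0.18 with a median of -0.73. Of them 9 passed the test, all lower, against 6.51% of all genes tested. Both cold sWAT libraries lay below both warm iBAT libraries for 36 of the 44, against 27.1% of all genes tested. Complex I, the NADH dehydrogenase, held 6 of the calls among 25 subunits (median -0.62), and complex IV, cytochrome oxidase, 3 among 9 (median -0.87). The 4 subunits of complex II (median -0.68), the 5 of complex III (median -0.90) and cytochrome c itself (Cycs, -0.18) had no call. The direction of the list median held without scaling (-0.57) and with quantile normalization (-0.70).

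Cox5b, of complex IV, read 16.0 and 28.7 FPKM in cold sWAT, against 54.5 and 44.5 FPKM in warm iBAT (log2 difference -1.32 ± 0.31, adjusted p = 0.0383). Ndufb5, of complex I, read 137 and 187 FPKM in cold sWAT, against 357 and 354 FPKM in warm iBAT (log2 difference -1.31 ± 0.25, adjusted p = 0.0221). Ndufb8, of the same complex, read 566 and 684 FPKM in cold sWAT, against 1286 and 1351 FPKM in warm iBAT (log2 difference -1.25 ± 0.27, adjusted p = 0.030). In all 3 the female cold sWAT value was the lowest. Across the list, the median was -1.03 between female libraries and -0.50 between male ones. Summed muscle levels, 54.8 and 2494 FPKM in cold sWAT, against 2868 and 2264 FPKM in warm iBAT, split the same libraries, and their part in the respiratory chain values was not tested. Leaving out the male cold sWAT library raised the count of lower calls to 34, leaving out the female one cut it to 3, and without either warm iBAT library it was 0, with list medians of -1.06, -0.44, -0.80 (female left out) and -0.71 (male left out).

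The neighbouring steps gave like medians and few calls. Among 12 ATP synthase subunits the median was -0.69. Both cold sWAT libraries lay below both warm iBAT libraries for 9 of them, against 27.1% of all genes tested, and none of these was called. Atp5g3, a gene for subunit c of the membrane ring, was higher with 385 and 401 FPKM in cold sWAT, against 175 and 183 FPKM in warm iBAT (log2 difference 0.96 ± 0.21, adjusted p = 0.0326), a call lost in 7 of 16 alternatives. Among 22 genes of the citric acid cycle and pyruvate dehydrogenase the median was -0.67, with 2 lower and 1 higher. Idh2, the mitochondrial NADP-dependent isocitrate dehydrogenase, read 69.1 and 148 FPKM in cold sWAT, against 427 and 387 FPKM in warm iBAT (log2 difference -2.16 ± 0.39, adjusted p = 0.0192). Pdhb, a subunit of pyruvate dehydrogenase, was higher, with 235 and 264 FPKM in cold sWAT, against 127 and 106 FPKM in warm iBAT (log2 difference 0.93 ± 0.22, adjusted p = 0.0415). Without the male cold sWAT library, 13 of the 22 were lower and none higher.

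Fatty acid oxidation followed with a median of -0.64 over 22 genes, 3 lower and 1 higher. The thiolase Acaa2, which completes the beta-oxidation cycle, read 418 and 823 FPKM in cold sWAT, against 1595 and 1794 FPKM in warm iBAT (log2 difference -1.69 ± 0.40, adjusted p = 0.0393). The dehydrogenase Hsd17b10 read 95.9 and 92.1 FPKM in cold sWAT, against 213 and 204 FPKM in warm iBAT (log2 difference -1.31 ± 0.22, adjusted p = 0.0168), and Etfb, which hands electrons on to the respiratory chain, 548 and 704 FPKM in cold sWAT, against 1425 and 1214 FPKM in warm iBAT (log2 difference -1.25 ± 0.27, adjusted p = 0.0328). Acsl5, an acyl-CoA synthetase that activates fatty acids at the entry to the pathway, was higher, with 91.9 and 64.9 FPKM in cold sWAT, against 19.0 and 16.6 FPKM in warm iBAT (log2 difference 1.90 ± 0.15, adjusted p = 0.00265). The Acaa2 call was lost in 9 of 16 alternatives, with adjusted p-values up to 0.182, whereas the Acsl5 call held in all. Without the male cold sWAT library 9 were lower, and without any of the other 3 libraries none was.

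Mitochondrial ribosome proteins differed less. Of 56 measured, 6 were lower, against 6.51% of all genes tested, and none higher. For 44 the 95% interval lay within 1 log2 unit of 0, against 58.5% of all genes tested. The median was -0.17. Mrps35 had the largest of these decreases, with 34.0 and 36.6 FPKM in cold sWAT, against 73.1 and 58.2 FPKM in warm iBAT (log2 difference -1.03 ± 0.16, adjusted p = 0.0139). Of 2 genes of the mitochondrial genome in the table, mt-Co2 took 10.0% and 13.0% of all FPKM in cold sWAT, against 17.0% and 16.8% in warm iBAT, but its log2 difference of -0.74 ± 1.68 did not pass the test. Both cold sWAT values lay below both warm iBAT values, and limma draws the error towards the spread it fits for genes of that level. The list of mitochondrial ribosome proteins held 14 lower calls without the male cold sWAT library.

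Mitochondrial carriers split. Of 35 measured, 5 were higher and 2 lower. Beside Slc25a10, the citrate carrier Slc25a1, which exports citrate for fat synthesis, read 932 and 402 FPKM in cold sWAT, against 101 and 119 FPKM in warm iBAT (log2 difference 2.30 ± 0.39, adjusted p = 0.0167). Slc25a25, an ATP-magnesium and phosphate carrier regulated by calcium, read 6.25 and 13.2 FPKM in cold sWAT, against 1.08 and 0.992 FPKM in warm iBAT (log2 difference 2.20 ± 0.34, adjusted p = 0.0130). Slc25a23, of the same carrier type, was lower with 29.4 and 31.3 FPKM in cold sWAT, against 62.3 and 54.4 FPKM in warm iBAT (log2 difference -1.08 ± 0.19, adjusted p = 0.0185), as was Slc25a26, which imports S-adenosylmethionine, with 6.66 and 8.19 FPKM in cold sWAT, against 14.2 and 16.9 FPKM in warm iBAT (log2 difference -1.12 ± 0.20, adjusted p = 0.0189). Without either warm iBAT library 1 higher and no lower call was left, and without the male cold sWAT library there were 6 of each.

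Tissue-type isoforms of oxidative enzymes also split by member. Of 18 measured, 4 were higher and 2 lower. Ucp2, the uncoupling protein of immune and many other cells, read 72.8 and 53.0 FPKM in cold sWAT, against 15.6 and 16.7 FPKM in warm iBAT (log2 difference 1.72 ± 0.28, adjusted p = 0.0155). Pdk3, a pyruvate dehydrogenase kinase, was higher with 2.95 and 2.08 FPKM in cold sWAT, against 0.619 and 0.365 FPKM in warm iBAT (log2 difference 1.14 ± 0.18, adjusted p = 0.0132), while its relative Pdk1 was lower with 10.3 and 7.62 FPKM in cold sWAT, against 19.3 and 18.8 FPKM in warm iBAT (log2 difference -1.18 ± 0.12, adjusted p = 0.00459). Cox7a2l, a factor in respiratory supercomplex assembly, was lower with 130.1 and 106 FPKM in cold sWAT, against 200.1 and 177 FPKM in warm iBAT (log2 difference -0.85 ± 0.15, adjusted p = 0.0176). Ckmt2, the muscle-type mitochondrial creatine kinase, read 0.201 and 14.8 FPKM in cold sWAT, against 21.7 and 16.7 FPKM in warm iBAT, and Cox6a2, the muscle form of a cytochrome oxidase subunit, read 2.48 and 18.0 FPKM in cold sWAT, against 35.5 and 26.5 FPKM in warm iBAT. Neither was called, and in both the female cold sWAT library was the low one, as it was for summed muscle genes. Without the male cold sWAT library 8 members were lower, and without the male warm iBAT library no call was left.

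Lipid synthesis stood well above resting brown fat. Of 16 genes for fatty acid synthesis and NADPH supply, 7 were higher in cold sWAT, against 8.06% of all genes tested, and none lower. The median was 1.34. Both cold sWAT libraries were above both warm iBAT libraries for 13 of the 16, against 33.7% of all genes tested. Malic enzyme, Me1, which makes NADPH for fat synthesis, read 537 and 234 FPKM in cold sWAT, against 29.1 and 36.3 FPKM in warm iBAT (log2 difference 3.24 ± 0.46, adjusted p = 0.0104). Pgd, an NADPH-producing dehydrogenase of the pentose phosphate pathway, read 347 and 241 FPKM in cold sWAT, against 38 and 44.4 FPKM in warm iBAT (log2 difference 2.62 ± 0.30, adjusted p = 0.00583). ATP citrate lyase, Acly, which makes cytosolic acetyl-CoA, read 304 and 144 FPKM in cold sWAT, against 33.8 and 39.2 FPKM in warm iBAT (log2 difference 2.33 ± 0.31, adjusted p = 0.00874). In Me1 and Acly the female cold sWAT value was over the male one, and neither overlapped warm iBAT.

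Fatty acid synthase, Fasn, read 1934 and 1140.1 FPKM in cold sWAT, against 226 and 339.9 FPKM in warm iBAT (log2 difference 2.25 ± 0.59, adjusted p = 0.0507), which fell just outside the threshold. Thrsp, a lipogenic protein that responds to thyroid hormone, read 2898 and 1415 FPKM in cold sWAT, against 702 and 662 FPKM in warm iBAT (log2 difference 1.40 ± 0.56, adjusted p = 0.142). Cold iBAT held 3606 and 3294 FPKM of Fasn, 593 and 581 FPKM of Acly and 299 and 414 FPKM of Me1. Against cold iBAT, with which cold sWAT shares its temperature, the list median of cold sWAT was -0.75. The list count was 5 higher without the female and 8 without the male cold sWAT library, and 1 or 2 without the female or the male warm iBAT library.

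Cholesterol synthesis genes were also higher. Of 16 measured genes, 10 were higher, against 8.06% of all genes tested, and 1 lower, against 6.51%, with a median of 1.42. Nsdhl, a sterol dehydrogenase late in the pathway, read 50.3 and 37.8 FPKM in cold sWAT, against 7.47 and 6.46 FPKM in warm iBAT (log2 difference 2.33 ± 0.14, adjusted p = 0.00196). Squalene epoxidase, Sqle, read 21 and 10.9 FPKM in cold sWAT, against 2.53 and 1.81 FPKM in warm iBAT (log2 difference 2.22 ± 0.32, adjusted p = 0.0105), and phosphomevalonate kinase, Pmvk, 126 and 97.2 FPKM in cold sWAT, against 24.4 and 23.0 FPKM in warm iBAT (log2 difference 2.01 ± 0.22, adjusted p = 0.00520). The exception was Fdft1, squalene synthase, which stands at the head of the sterol branch: it read 22.0 and 10.5 FPKM in cold sWAT, against 50.7 and 60.3 FPKM in warm iBAT (log2 difference -1.95 ± 0.28, adjusted p = 0.0107), with 11.3 and 14.0 FPKM in warm sWAT and 23.5 and 20.4 FPKM in cold iBAT. Warm iBAT alone was high for Fdft1. Against cold iBAT the list median was -0.31. The higher count was 5 without the female and 3 without the male warm iBAT library, and the Fdft1 call was lost without either.

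Triglyceride genes gave fewer but large calls. Of 26 measured, 4 were higher and none lower, with a median of 0.50. Agpat2, an acyltransferase that makes phosphatidic acid, read 662 and 750.1 FPKM in cold sWAT, against 55.9 and 44.2 FPKM in warm iBAT (log2 difference 3.63 ± 0.36, adjusted p = 0.00424), and 26.1 and 57.5 FPKM in warm sWAT and 981 and 914 FPKM in cold iBAT. The cold groups of both depots stood far above the warm ones. G0s2, an inhibitor of the main fat lipase, read 299 and 439.7 FPKM in cold sWAT, against 50.6 and 38.8 FPKM in warm iBAT (log2 difference 2.84 ± 0.56, adjusted p = 0.0248), and Mogat1, an acyltransferase acting on monoacylglycerol, 15.8 and 22.5 FPKM in cold sWAT, against 1.48 and 3.28 FPKM in warm iBAT (log2 difference 2.46 ± 0.46, adjusted p = 0.0212). The lipase gene Pnpla2 was not called (661 and 840.3 FPKM in cold sWAT, against 937 and 1061 FPKM in warm iBAT), nor was Lipe, hormone-sensitive lipase (390.0 and 599 FPKM in cold sWAT, against 336 and 424 FPKM in warm iBAT). Without either warm iBAT library 1 call was left, and without the male cold sWAT library 4 were higher and 2 lower.

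In glucose use, 2 of 12 measured glycolysis and uptake genes were higher, against 8.06% of all genes tested. These were Pfkp, a phosphofructokinase (34.5 and 47.8 FPKM in cold sWAT, against 14.6 and 13.9 FPKM in warm iBAT, log2 difference 1.29 ± 0.23, adjusted p = 0.0185), and the enolase Eno1 (147 and 126 FPKM in cold sWAT, against 65.9 and 73.7 FPKM in warm iBAT, log2 difference 0.79 ± 0.14, adjusted p = 0.0198). Without the male cold sWAT library 2 were higher and 2 lower, with a median of 0.06. The median was otherwise 0.46, and against cold iBAT it was -1.19. Slc2a4, the insulin-responsive glucose transporter, read 117 and 122 FPKM in cold sWAT, against 102 and 94.7 FPKM in warm iBAT (interval -1.13 to 1.36). Of 10 glycogen genes only Gyg, the glycogen primer protein, was called, lower with 91.6 and 92.9 FPKM in cold sWAT, against 129.9 and 137 FPKM in warm iBAT (log2 difference -0.69 ± 0.17, adjusted p = 0.0465), a call lost in 9 of 16 alternatives, without scaling and with no filter among them.

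**Figure D3:**
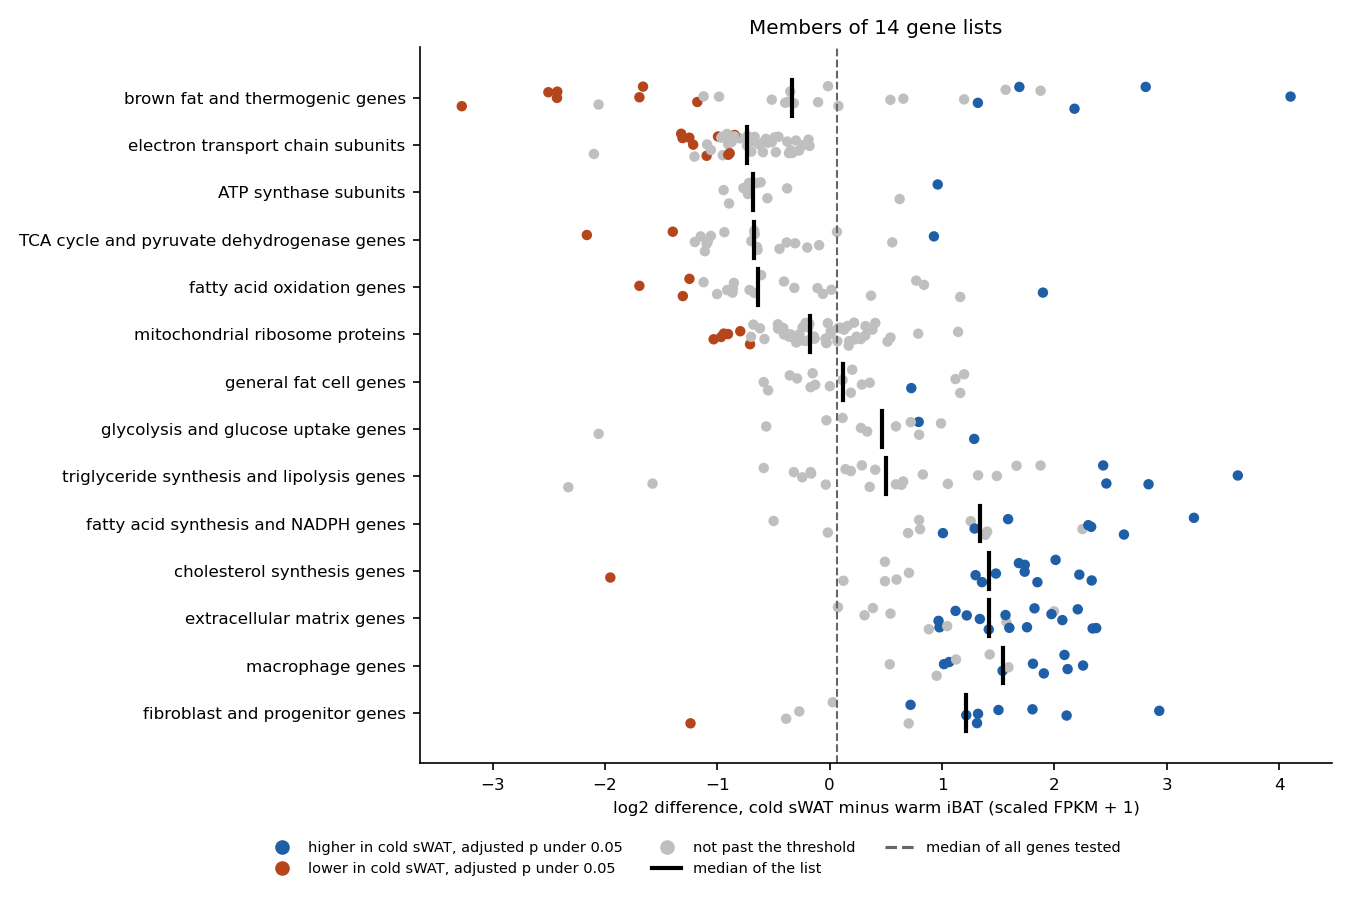
Log2 difference, cold sWAT minus warm iBAT (x), of every tested member of 14 gene lists (y); blue points were higher and red points lower past the threshold, grey points did not pass, black bars are list medians and the dashed line is the median of all genes, 0.07. Respiratory chain subunits all lie below 0, matrix and macrophage genes all above it, and thermogenic genes on both sides.

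Some genes of body position and of brown fat identity differed between the groups, although most members of both lists were not called. Of 60 position genes in the table, 25 did not pass the filter on low values, and 13 were listed at 0 in both groups. Leaving aside Zic1, 34 were measured, 7 of them higher in cold sWAT and 3 lower. Hoxc10, a homeobox gene of the hind part of the body, read 10.2 and 14.4 FPKM in cold sWAT, against 0 and 0.0314 FPKM in warm iBAT (log2 difference 3.61 ± 0.35, adjusted p = 0.00387). Hoxc9 read 2.14 and 3.08 FPKM in cold sWAT and was listed at 0 in both warm iBAT libraries (adjusted p = 0.0117). Hoxa10 read 3.51 and 3.02 FPKM in cold sWAT, against 0 and 0.0908 FPKM in warm iBAT (adjusted p = 0.0173), Hoxa9 8.19 and 8.13 FPKM in cold sWAT, against 1.40 and 0.566 FPKM in warm iBAT (log2 difference 2.13 ± 0.37, adjusted p = 0.0173), and Hoxc8 7.93 and 15.5 FPKM in cold sWAT, against 1.25 and 0.944 FPKM in warm iBAT (log2 difference 2.42 ± 0.51, adjusted p = 0.0302). Shox2 and Tbx1 completed the higher calls, with 5.19 and 5.05 FPKM in cold sWAT, against 0.139 and 0.230 FPKM in warm iBAT for Shox2 (adjusted p = 0.00248) and 2.01 and 1.33 FPKM in cold sWAT, against 0.0324 and 0.101 FPKM in warm iBAT for Tbx1 (adjusted p = 0.0101).

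On the other side, Hoxa5, of a more forward position, read 3.38 and 2.70 FPKM in cold sWAT, against 16.0 and 13.0 FPKM in warm iBAT (log2 difference -2.08 ± 0.16, adjusted p = 0.00248), and Hoxa3 1.79 and 1.68 FPKM in cold sWAT, against 4.69 and 4.74 FPKM in warm iBAT (log2 difference -1.18 ± 0.24, adjusted p = 0.0258). Lhx8, a marker of interscapular brown fat, read 0.605 and 1.03 FPKM in cold sWAT, against 3.47 and 2.55 FPKM in warm iBAT (log2 difference -1.23 ± 0.28, adjusted p = 0.0348). Zic1, another, read 0 and 0.523 FPKM in cold sWAT, against 1.77 and 2.01 FPKM in warm iBAT, with 0 and 0 FPKM in warm sWAT and 0.555 and 0.924 FPKM in cold iBAT. It reached 1 FPKM only in the 2 warm iBAT libraries and so passed the filter through them alone, and its values are given without a test. Within the Hoxa genes the called ones numbered 3 and 5 were lower and those numbered 9 and 10 higher. Between them Hoxa7, with 7.58 and 7.54 FPKM in cold sWAT, against 6.09 and 4.24 FPKM in warm iBAT, was not called. In the Hoxc genes, numbers 4, 5 and 6 were not called, and 8, 9 and 10 were higher. Warm sWAT read 5.74 and 12.3 FPKM for Hoxc10 and 2.66 and 3.5 FPKM for Hoxa5, and cold iBAT 11.8 and 9.60 FPKM for Hoxa5, while Hoxc10 was listed at 0 in both cold iBAT libraries. With Zic1 included, counts were 2 higher and 1 lower without either warm iBAT library, and 6 and 2 without the female cold sWAT library.

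**Figure D4:**
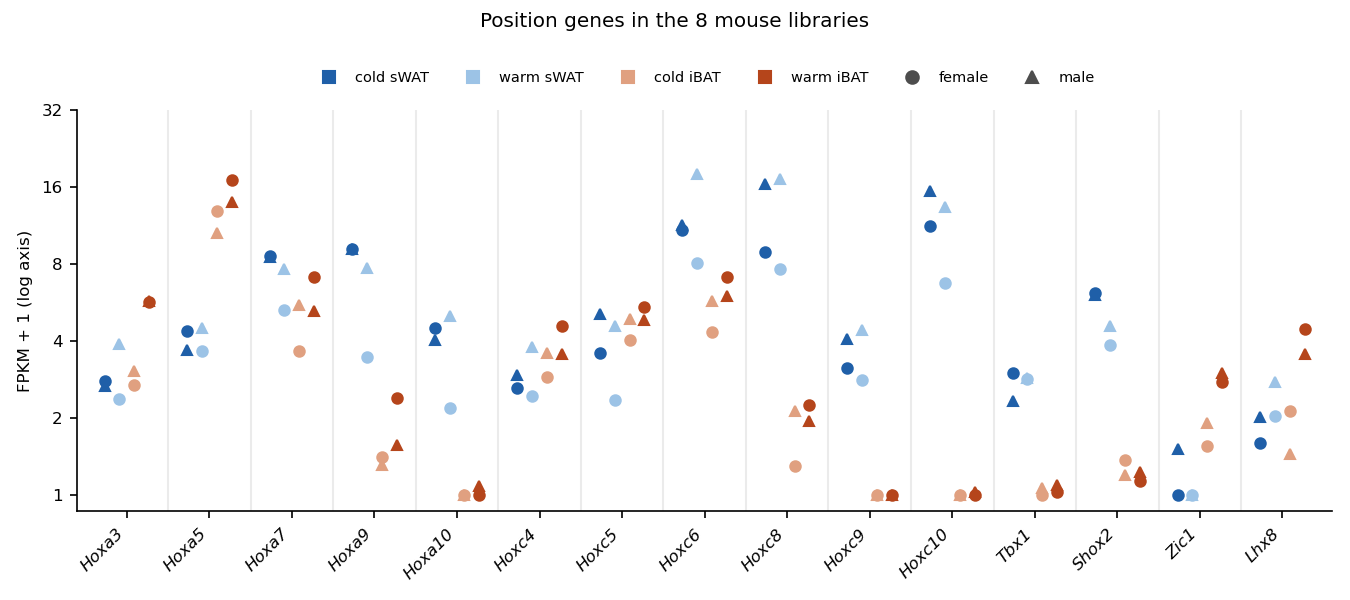
FPKM + 1 (y, log axis) of 15 position genes (x) in each mouse library; colours give the 4 groups, circles female and triangles male libraries. Hoxa9, Hoxa10, Hoxc8, Hoxc9, Hoxc10, Tbx1 and Shox2 are higher in cold sWAT than in warm iBAT, and Hoxa3, Hoxa5 and Lhx8 are lower; Zic1 exceeds 1 FPKM only in the 2 warm iBAT libraries.

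Of 10 measured classical brown fat identity genes beside Zic1, 2 were lower and 1 higher. Lhx8 was joined by Mpzl2, a cell adhesion protein (9.74 and 5.02 FPKM in cold sWAT, against 22.5 and 18.5 FPKM in warm iBAT, log2 difference -1.57 ± 0.24, adjusted p = 0.0128). Ebf2, a transcription factor of brown fat precursors, read 4.47 and 9.12 FPKM in cold sWAT, against 22.5 and 14.4 FPKM in warm iBAT (log2 difference -1.5 ± 0.41, adjusted p = 0.0589), with both cold sWAT values below those of warm iBAT but no call. The growth factor Bmp7 was the higher one, with 1.76 and 1.07 FPKM in cold sWAT, against 0.172 and 0.250 FPKM in warm iBAT (log2 difference 0.91 ± 0.22, adjusted p = 0.0430), a call kept in 5 of 15 alternatives. Myf5 and Pax7 did not pass the filter. Lhx8 read 1.04 and 1.77 FPKM in warm sWAT. With Zic1 included, 1 gene was lower and none higher without the female cold sWAT library.

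The list of beige fat cell genes gave 4 higher calls and no lower one among 13 measured beside Fgf21, against 8.06% and 6.51% of all genes tested. The median was 1.10 over all 14, which counts Fgf21, a gene bound to be higher by the filter. The calls were Shox2, Hoxc9 and Tbx1, which are also in the position list, and Klhl13, an adaptor of ubiquitin ligases (4.99 and 6.13 FPKM in cold sWAT, against 1.96 and 0.801 FPKM in warm iBAT, log2 difference 1.39 ± 0.27, adjusted p = 0.0222). Against warm iBAT, warm sWAT had a list median of 1.25, beside 1.10 for cold sWAT. Tmem26, often used as a beige marker, read 0.608 and 0.442 FPKM in cold sWAT, against 0.0107 and 0 FPKM in warm iBAT, with both cold sWAT values above those of warm iBAT but no call (adjusted p = 0.0656), and warm sWAT read 1.25 and 1.14 FPKM. Fgf21, a hormone of fuel metabolism, read 1.45 and 1.97 FPKM in cold sWAT, against 0 and 0.0709 FPKM in warm iBAT, with 0 and 0.306 FPKM in warm sWAT and 0.785 and 0.706 FPKM in cold iBAT. It passed the filter through cold sWAT alone and is given without a test. With Fgf21 included where measured, the count was 2 without the female and 1 without the male warm iBAT library, and 8 higher and 1 lower without the male cold sWAT library. The median was 0.50 without the female cold sWAT library.

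Among 14 genes of the sympathetic signal and cyclic AMP, 1 was called. Adcy5, an adenylate cyclase, read 12.4 and 21.4 FPKM in cold sWAT, against 1.76 and 3.44 FPKM in warm iBAT (log2 difference 2.17 ± 0.43, adjusted p = 0.0248). Gnas, the stimulatory G protein, read 439 and 699 FPKM in cold sWAT, against 606 and 464 FPKM in warm iBAT (interval -0.88 to 0.68), with the groups overlapping. Adra1a and Adrb1, receptors for noradrenaline, were not called, with 2.10 and 5.50 FPKM in cold sWAT, against 5.21 and 7.91 FPKM in warm iBAT for Adra1a and 2.53 and 3.21 FPKM in cold sWAT, against 5.15 and 4.05 FPKM in warm iBAT (adjusted p = 0.0501) for Adrb1. Without the male cold sWAT library 2 genes of this list were higher and 3 lower.

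Nuclear receptors and their coactivators held 4 lower and 2 higher calls among 19, against 6.51% and 8.06% of all genes tested. Their median was -0.55. Ppara, the fatty acid receptor that drives oxidation genes, read 2.10 and 10.8 FPKM in cold sWAT, against 31.0 and 26.3 FPKM in warm iBAT (log2 difference -2.42 ± 0.61, adjusted p = 0.0456), and its call was kept in 6 of 16 alternatives. Rxra, the shared partner of many receptors, was higher with 24.1 and 26.1 FPKM in cold sWAT, against 13.0 and 13.2 FPKM in warm iBAT (log2 difference 0.73 ± 0.19, adjusted p = 0.0478), a call lost in 10 of 16 alternatives. Pparg, the master regulator of fat cells, read 72.8 and 66.4 FPKM in cold sWAT, against 90.9 and 90.9 FPKM in warm iBAT (interval -1.78 to 0.69). Thra, a thyroid hormone receptor, and Ppargc1b were also lower, with 19.0 and 18.6 FPKM in cold sWAT, against 35.9 and 25.4 FPKM in warm iBAT for Thra (log2 difference -0.82 ± 0.17, adjusted p = 0.0272). Without either warm iBAT library no call was left, and without the male cold sWAT library 7 were lower.

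Beside Fgf21, genes for secreted factors were higher in 4 cases and lower in 1 of 15. Gdf10, a growth factor of the BMP group, read 18.9 and 22.8 FPKM in cold sWAT, against 4.81 and 3.07 FPKM in warm iBAT (log2 difference 2.02 ± 0.25, adjusted p = 0.00688). Igf1, insulin-like growth factor 1, read 26.6 and 31.4 FPKM in cold sWAT, against 6.31 and 6.13 FPKM in warm iBAT (log2 difference 1.90 ± 0.16, adjusted p = 0.00329), and 24.0 and 24.2 FPKM in warm sWAT and 2.93 and 2.33 FPKM in cold iBAT, so both sWAT groups were high. Vegfb, a growth factor of the VEGF group, was lower with 28.3 and 37.6 FPKM in cold sWAT, against 78.2 and 77.3 FPKM in warm iBAT (log2 difference -1.39 ± 0.26, adjusted p = 0.0215). The leptin gene, Lep, read 58.8 and 75.2 FPKM in cold sWAT, against 30.2 and 57.4 FPKM in warm iBAT (interval -1.57 to 2.56). Angptl4, an inhibitor of lipoprotein lipase, read 42.6 and 225 FPKM in cold sWAT, against 431 and 456 FPKM in warm iBAT, below warm iBAT in both cold sWAT libraries but not called, with the female and male cold sWAT values far apart. With Fgf21 included where measured, this list held 2 higher calls without the female and 1 without the male warm iBAT library, 3 higher and none lower without the female cold sWAT library, and 5 and 3 without the male one. In the creatine cycle, 1 of 6 genes was called: the creatine transporter Slc6a8 read 4.24 and 3.45 FPKM in cold sWAT, against 17.3 and 14.8 FPKM in warm iBAT (log2 difference -1.96 ± 0.18, adjusted p = 0.00382), with 5.69 and 3.59 FPKM in warm sWAT and 2.97 and 2.84 FPKM in cold iBAT, so warm iBAT alone was high. Of 16 clock genes 2 were lower, against 6.51% of all genes tested, and none was higher. Hlf, a clock output factor, was among the lower ones (1.91 and 2.26 FPKM in cold sWAT, against 4.65 and 4.83 FPKM in warm iBAT, log2 difference -1.02 ± 0.22, adjusted p = 0.0302). Without the female cold sWAT library 1 clock gene was lower.

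Connective tissue genes were higher. Of 23 extracellular matrix genes, 15 were higher in cold sWAT, against 8.06% of all genes tested, and none lower. All 23 log2 differences were above 0, with a median of 1.42. In 20 both cold sWAT libraries exceeded both warm iBAT libraries, against 33.7% of all genes tested. Col3a1, a fibrillar collagen, read 339 and 446 FPKM in cold sWAT, against 86.0 and 50.7 FPKM in warm iBAT (log2 difference 2.37 ± 0.28, adjusted p = 0.00629). Col1a1, the main collagen of connective tissue, read 88.4 and 76.5 FPKM in cold sWAT, against 17.1 and 13.3 FPKM in warm iBAT (log2 difference 2.21 ± 0.20, adjusted p = 0.00382), and Timp2, an inhibitor of matrix proteases, 195 and 111 FPKM in cold sWAT, against 24.5 and 25.6 FPKM in warm iBAT (log2 difference 2.34 ± 0.22, adjusted p = 0.00382). The summed level was 2389 and 2442 FPKM in cold sWAT, against 881 and 720.0 FPKM in warm iBAT, and the cold sWAT libraries were close to each other here. Warm sWAT summed to 2407 and 2232 FPKM. The count was 15 without the female and 16 without the male cold sWAT library, but 8 and 3 without the female and the male warm iBAT library.

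Fibroblast and progenitor genes followed, with 8 of 13 higher and 1 lower, against 8.06% and 6.51% of all genes tested. Thy1, a surface protein of fibroblasts and T cells, read 67.6 and 19.9 FPKM in cold sWAT, against 4.52 and 2.63 FPKM in warm iBAT (log2 difference 2.93 ± 0.48, adjusted p = 0.0153). Dpp4, a protease that marks early fat progenitors, read 14.5 and 7.56 FPKM in cold sWAT, against 1.48 and 1.40 FPKM in warm iBAT (log2 difference 2.11 ± 0.26, adjusted p = 0.00739), and Pi16, found with it, 59.8 and 33.8 FPKM in cold sWAT, against 10.5 and 11.1 FPKM in warm iBAT (log2 difference 1.81 ± 0.22, adjusted p = 0.00715). Dlk1, a protein of preadipocytes, was the lower one with 0.307 and 1.08 FPKM in cold sWAT, against 3.36 and 2.12 FPKM in warm iBAT (log2 difference -1.24 ± 0.30, adjusted p = 0.0415). None of the 13 was called without either warm iBAT library. Of 14 endothelial genes, 2 were higher, against 8.06% of all genes tested, and 10 had intervals within 1 log2 unit of 0, against 58.5%. Nos3, endothelial nitric oxide synthase, read 19.3 and 25.3 FPKM in cold sWAT, against 6.20 and 6.22 FPKM in warm iBAT (log2 difference 1.53 ± 0.25, adjusted p = 0.0152), and Eng, an endothelial coreceptor, 24.4 and 25 FPKM in cold sWAT, against 16.0 and 14.1 FPKM in warm iBAT (log2 difference 0.52 ± 0.12, adjusted p = 0.0358), while Pecam1, a general vessel marker, read 22.9 and 21.3 FPKM in cold sWAT, against 17.5 and 17.5 FPKM in warm iBAT (interval -0.17 to 0.50). No endothelial call was left without either warm iBAT library.

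Macrophage genes were higher in 8 of 13 cases, against 8.06% of all genes tested, with a median of 1.54. Both cold sWAT libraries lay above both warm iBAT libraries for all 13, against 33.7% of all genes tested. Csf1r, the receptor macrophages depend on, and Adgre1, the F4/80 antigen, are defining markers. Csf1r read 36.4 and 28.5 FPKM in cold sWAT, against 9.62 and 8.87 FPKM in warm iBAT (log2 difference 1.54 ± 0.12, adjusted p = 0.00259), and Adgre1 7.82 and 8.54 FPKM in cold sWAT, against 3.45 and 2.58 FPKM in warm iBAT (log2 difference 1.06 ± 0.17, adjusted p = 0.0130). Lgals3, galectin 3, read 55.7 and 18.0 FPKM in cold sWAT, against 5.03 and 5.33 FPKM in warm iBAT (log2 difference 2.26 ± 0.46, adjusted p = 0.0265). The complement genes C1qc and C1qb read 96.4 and 65.7 FPKM in cold sWAT, against 16.2 and 15.0 FPKM in warm iBAT for C1qc (log2 difference 2.12 ± 0.22, adjusted p = 0.00457) and 94.1 and 66.7 FPKM in cold sWAT, against 17.2 and 14.6 FPKM in warm iBAT for C1qb (log2 difference 2.09 ± 0.21, adjusted p = 0.00413). Summed levels were 395 and 249 FPKM in cold sWAT, against 74.8 and 65.1 FPKM in warm iBAT, and 652 and 422 FPKM in warm sWAT and 37.2 and 38.9 FPKM in cold iBAT. Each sWAT library lay above each iBAT library. The count was 8 without the female and 10 without the male cold sWAT library, and 5 without either warm iBAT library.

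Common fat cell genes differed little by count. Among 17 measured, 1 was called, Rxra, and the median was 0.12, near that of all genes. Adipoq had a 95% interval of -1.02 to 1.02, Lpl, lipoprotein lipase, read 616 and 1168 FPKM in cold sWAT, against 586 and 593 FPKM in warm iBAT (interval -0.87 to 1.59), and Plin1, the lipid droplet coat protein, 275 and 481 FPKM in cold sWAT, against 220.0 and 320 FPKM in warm iBAT (interval -1.14 to 1.72). These intervals are wide, so differences of up to about 1 log2 unit or more would not have been seen. White fat hormones and markers held 1 call among 13, Trim14, an antiviral signalling protein, which was higher with 3.79 and 3.07 FPKM in cold sWAT, against 0.926 and 0.673 FPKM in warm iBAT (log2 difference 1.20 ± 0.25, adjusted p = 0.0283), with no call without the female cold sWAT library. Nnat, neuronatin, read 2.55 and 85.3 FPKM in cold sWAT, against 12.2 and 39.5 FPKM in warm iBAT, and the spread within groups exceeded the difference between them.

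Of 36 cytosolic ribosome proteins none was called, 26 had intervals within 1 log2 unit of 0, against 58.5% of all genes tested, and the median was 0.04. Of 28 proteasome subunits, 4 were higher, against 8.06% of all genes tested, none was lower and 23 had such intervals, with a median of 0.30. The immune subunit Psmb9 led with 39.3 and 22.0 FPKM in cold sWAT, against 13.5 and 10.5 FPKM in warm iBAT (log2 difference 1.08 ± 0.24, adjusted p = 0.0325). Of 12 chaperone and cold RNA-binding genes, 2 were higher, against 8.06% of all genes tested. These were Hspa5, the main chaperone of the endoplasmic reticulum (141 and 117 FPKM in cold sWAT, against 69.2 and 65.1 FPKM in warm iBAT, log2 difference 0.76 ± 0.15, adjusted p = 0.0250), and Atf4, a stress transcription factor (84.1 and 65.2 FPKM in cold sWAT, against 36.0 and 43.0 FPKM in warm iBAT, log2 difference 0.73 ± 0.16, adjusted p = 0.0326). Neither was called without the female cold sWAT library. The cold-inducible RNA-binding protein Cirbp read 27.0 and 21.7 FPKM in cold sWAT, against 25.5 and 21.5 FPKM in warm iBAT (interval -0.81 to 0.59), while warm sWAT read 67.4 and 59.7 FPKM and cold iBAT 5.03 and 9.76 FPKM. Of 13 interferon response genes 1 was higher, Gbp2, a guanylate-binding protein (24.6 and 26.8 FPKM in cold sWAT, against 11.1 and 10.7 FPKM in warm iBAT, log2 difference 1.01 ± 0.16, adjusted p = 0.0128). Of 15 cell division genes 2 were higher, Top2a, a topoisomerase of dividing cells (2.09 and 0.847 FPKM in cold sWAT, against 0.128 and 0.0108 FPKM in warm iBAT, adjusted p = 0.0494), and Mcm3, a part of the replication helicase (6.23 and 2.83 FPKM in cold sWAT, against 1.71 and 1.16 FPKM in warm iBAT, adjusted p = 0.0496). The Mcm3 call was lost in 12 of 16 alternatives and the Top2a call in 11 of 15. The list held no call without scaling, with quantile normalization, with no filter, in the 4 libraries alone or without the female cold sWAT library, 4 without the male one and 6 with a pseudocount of 0.1. The 1 mesothelial gene measured, Lrrn4, was lower (0.418 and 0.514 FPKM in cold sWAT, against 2.44 and 1.66 FPKM in warm iBAT, log2 difference -1.12 ± 0.24, adjusted p = 0.0323), and 5 others did not pass the filter.

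Set beside the other 2 mouse groups, the lists differed in where cold sWAT lay. These comparisons share libraries with the main one, so they are not independent of it. Against the same warm iBAT libraries, the median of electron transport chain subunits was -0.73 in cold sWAT, -2.65 in warm sWAT and 0.35 in cold iBAT. Cold sWAT lay between warm sWAT and warm iBAT here. For fatty acid synthesis the medians were 1.34 in cold sWAT, -0.69 in warm sWAT and 2.00 in cold iBAT, and for cholesterol synthesis 1.42 in cold sWAT, 0.05 in warm sWAT and 1.70 in cold iBAT. Both cold groups were high in these lists. For macrophage genes the medians were 1.54 in cold sWAT, 1.83 in warm sWAT and -0.41 in cold iBAT. For beige fat cell genes, with Fgf21 counted although it passed the filter through cold sWAT alone, they were 1.10 in cold sWAT, 1.25 in warm sWAT and -0.09 in cold iBAT. Both sWAT groups were high in these lists.

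**Figure D5:**
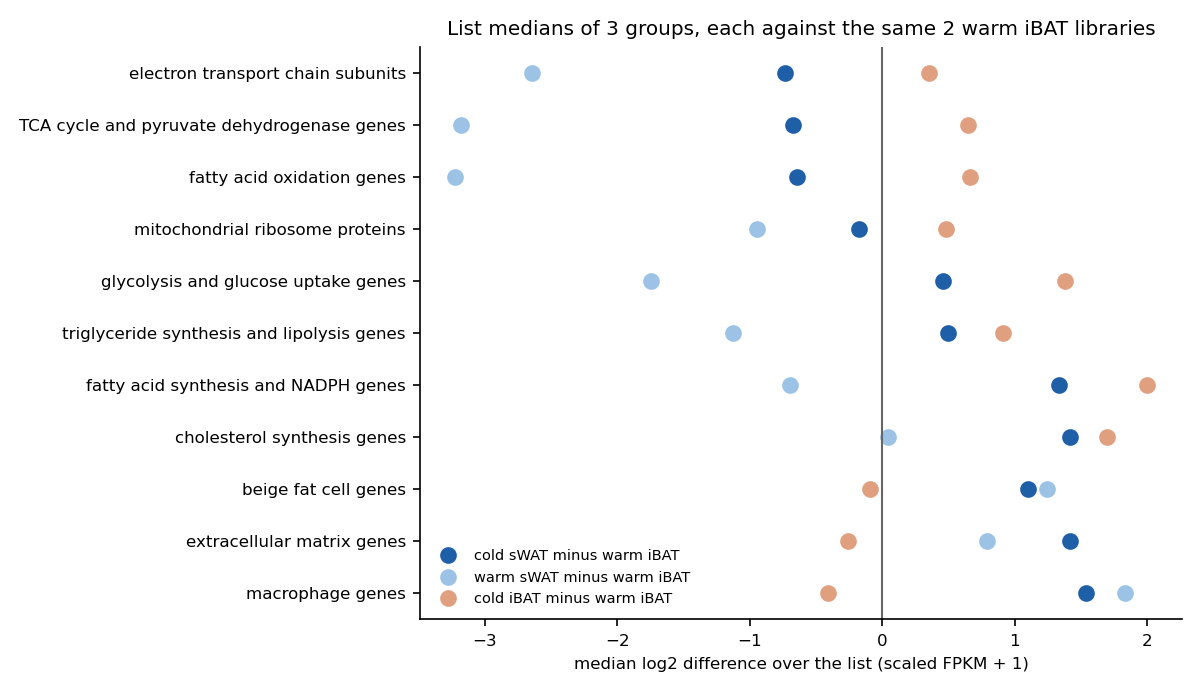
Median log2 difference (x) over the members of 11 gene lists (y) for cold sWAT, warm sWAT and cold iBAT, each against the same 2 warm iBAT libraries. Cold sWAT lies between the other groups for oxidative lists (respiratory chain median -0.73), near cold iBAT for fatty acid and cholesterol synthesis, and near warm sWAT for beige and macrophage genes. The beige list includes Fgf21, which passed the filter through cold sWAT alone.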

How the data were processed

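Per the labels' protocols, RNA came from a column kit made for fatty tissue and went through a standard Illumina library protocol with no strand-specific step named. The submitters' processing notes name CASAVA 1.8. No source used here names the aligner, the counting tool or the genome build, so no coordinates are printed. Values are FPKM per gene for 14871 genes, as deposited by the authors in a single table, of which 148 had no symbol in the reference name table. Absolute depth is unknown. Among genes under 0.3 FPKM, 27.5% to 34.1% of the ratios between libraries fell within 0.5% of ratios of whole numbers up to 5, against 3.48% to 4.06% at other assumed depths, and relative depths were 0.95 to 1.10 times that of the female warm iBAT library.

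A gene was kept where 2 or more of the 8 mouse libraries reached 1 FPKM (10689 genes, with 4182 left out). FPKM were divided by median-ratio size factors, log2-transformed with a pseudocount of 1 and fitted in limma 3.58.1 (R 4.3.3) as 4 groups with a mean-variance trend, leaving 4 residual degrees of freedom. A gene was called at a Benjamini-Hochberg adjusted p under 0.05. Printed levels are the deposited FPKM, and errors of log2 differences are standard errors. Figures were drawn with Python 3.11.15 and matplotlib 3.10.9.

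Groups were taken from the labels. The 39 gene lists and the genes to be named were chosen with earlier results of these data known. Named genes were the 10 largest called changes each way with a mean of at least 10 FPKM in the higher group, a fixed set of fat genes, up to 3 called members each way per list, and members of the position, isoform, brown identity and beige lists. Cd79a, Adgre1, Csf1r, Pnpla2, Lipe, Slc2a4, Lpl, Plin1, Nnat, Angptl4, Gnas, Adra1a, Adrb1, Pecam1, Sirt3, Aspg, Thra, Krt14, Cycs and mt-Co2 were chosen after their values were seen. Some genes chosen by this rule are not reported here. Alternatives were other scalings, another pseudocount and other filters, a fit of the 4 libraries alone, no trend, sex as a block and leaving out each library.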

Additional observations from a re-analysis of the deposited data

Results flagged for a closer look

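The hemoglobin genes Hba-a2 and Hbb-bt differed in opposite directions in the female and the male pair of libraries. The log2 difference of Hba-a2, cold sWAT minus warm iBAT, was 4.13 in the female pair and -2.76 in the male pair, and that of Hbb-bt was 4.37 in the female pair and -2.38 in the male pair. The difference between the pairs was not tested, since each holds 1 library a group. Summed red blood cell levels were 1899.7 and 1276 FPKM in cold sWAT, against 90.9 and 7696 FPKM in warm iBAT. Hemoglobin genes have near-identical copies, so the values of single members are uncertain.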

How the results depend on the processing

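The main analysis called 862 genes higher and 696 lower in cold sWAT. Without scaling the lower calls numbered 395, and in a fit of the 4 libraries alone 343 genes were higher and 199 lower. Leaving out 1 library at a time gave 105 to 1622 higher and 56 to 896 lower calls. Counts moved by over 1.5 times without either warm iBAT library (141 and 77 without the female, 105 and 56 without the male), without either cold iBAT library (473 and 396, 475 and 393), without the female cold sWAT library (548 and 384) and, for higher calls, without the male one (1622). The causes were not tested, beyond the fewer libraries in each fit; where a group was left with 1 library, that library is assumed to vary like the other groups. With sex as a replicate block, 1062 genes were higher and 827 lower, of which 830 and 671 were shared with the main analysis. That block gave 20 lower calls among electron transport chain subunits against 9, 8 against 2 in the citric acid cycle list and 5 higher against 2 in the cell division list. Same-numbered libraries share their sex, and the labels name no shared litter or preparation. Correlations of female minus male differences were 0.18 for cold sWAT with warm iBAT, 0.48 with warm sWAT and 0.39 with cold iBAT. They were 0.44 for warm iBAT with warm sWAT, 0.00 with cold iBAT, and 0.01 for warm sWAT with cold iBAT. These were over 0.1 in 4 of 6 pairs of groups, so a pairing was not established. The labels do not say whether the depots at a temperature came from the same mice, so the libraries in the fit may not be independent. None of the 105 called genes chosen by the naming rule reversed under any of the 16 alternatives, and in a fit of the 4 libraries alone 59 were still called. Fewer of them than that were still called when either warm iBAT library was left out. Depth limits genes under about 1 FPKM, whose differences the pseudocount compresses.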
